A study of Mus musculus with 12 samples.

Results

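The 10 genes described here encode the T cell receptor signalling complex and surface proteins of T cells that live in the epidermis, and they are 10 of the 23235 gene symbols listed. They were chosen by symbol. Cd3d, Cd3e, Cd3g and Cd247 encode the signalling chains of the receptor, and Lck and Zap70 its first kinases. Thy1, Il2rb, Itgae and Klrk1 encode surface proteins that skin-resident T cells carry. Messenger RNA was sequenced from FVB/NJ mice in 12 libraries that form 4 groups of 3. The skin was given either acetone, the vehicle, or 20% camphor white oil (CWO), which is distilled from camphor wood. The CWO papillomas and the vehicle papillomas are pre-malignant skin tumours of mice shaved at 6 to 7 weeks of age. Those mice had received 400 nmol of the carcinogen DMBA, and 10 nmol of the promoting agent TPA repeatedly after it. Treatment with CWO or acetone lasted 6 weeks, and each papilloma library holds 4 whole tumours pooled from 1 mouse. The CWO epidermis and the vehicle epidermis were taken 24 h after 400 µL of CWO or acetone on shaved skin without DMBA or TPA, at an age not given in the sources used here. Ammonium thiocyanate freed the epidermis from the dermis, and only the 3 samples of least degraded RNA were sequenced for each treatment.

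In mouse skin most T cells of the epidermis are dendritic epidermal T cells, which carry a gamma delta T cell receptor and lie between the keratinocytes. The receptor chains themselves cannot signal: Lck phosphorylates the tails of the CD3 and zeta chains, and Zap70 docks there and passes the signal on. Most of these cells lack the co-receptors CD4 and CD8, depend on interleukin 15, and carry NKG2D, a receptor for stress ligands on keratinocytes.

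The libraries held about 11100000 to 24600000 fragments, and 11842 to 12456 genes per library reached an FPKM of 1. FPKM is a fragment number scaled to transcript length and library size, so levels can be compared between genes. The 10 markers of a T cell list, 6 of them among the genes described here, summed to 6.66 to 8.90 FPKM in CWO papillomas and 9.94 to 13.5 FPKM in vehicle papillomas. They summed to 123 to 153 FPKM in CWO epidermis and 142 to 172 FPKM in vehicle epidermis. Since the sums hold the 6 shared genes, they are a description and no separate evidence. Of the other markers, Cd2 and Lat had higher means in epidermis under both treatments. Cd5 and Cd6, which are below the filter used here, had higher means in papillomas. The co-receptor genes, singled out after their values were seen, were near 0 in epidermis. Cd4 ranged over 0.191 to 0.584 FPKM in CWO epidermis and 0.220 to 0.369 FPKM in vehicle epidermis. Cd8a had at most 6 fragments in a library of CWO epidermis and at most 3 in vehicle epidermis. Neither mean was lower in papillomas. Cd4 averaged 0.441 and 0.473 FPKM in CWO and vehicle papillomas, beside 0.362 and 0.313 FPKM in CWO and vehicle epidermis. Cd8a averaged 0.210 and 0.314 FPKM in CWO and vehicle papillomas, beside 0.131 and 0.0586 FPKM in CWO and vehicle epidermis. Which T cells these values come from was not tested. Natural killer cells share several of the 10 genes described here. The 7 natural killer markers summed to 0.801 to 1.45 FPKM in CWO epidermis and 0.568 to 1.09 FPKM in vehicle epidermis. Among them, named after their values were seen, Klrb1c had 0.422 to 0.792 FPKM in CWO epidermis and 0.526 to 0.791 FPKM in vehicle epidermis, on up to 31 and 29 fragments. Ncr1 had 0.134 to 0.315 FPKM in CWO epidermis and 0 to 0.173 FPKM in vehicle epidermis, and Klra8 was at 0 in all 6. Klrd1, a receptor chain gene of natural killer cells and some T cells, had 4.62 to 7.88 FPKM in CWO epidermis and 3.32 to 7.98 FPKM in vehicle epidermis. The part of natural killer cells in the values below was not tested.

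**Figure D1:**
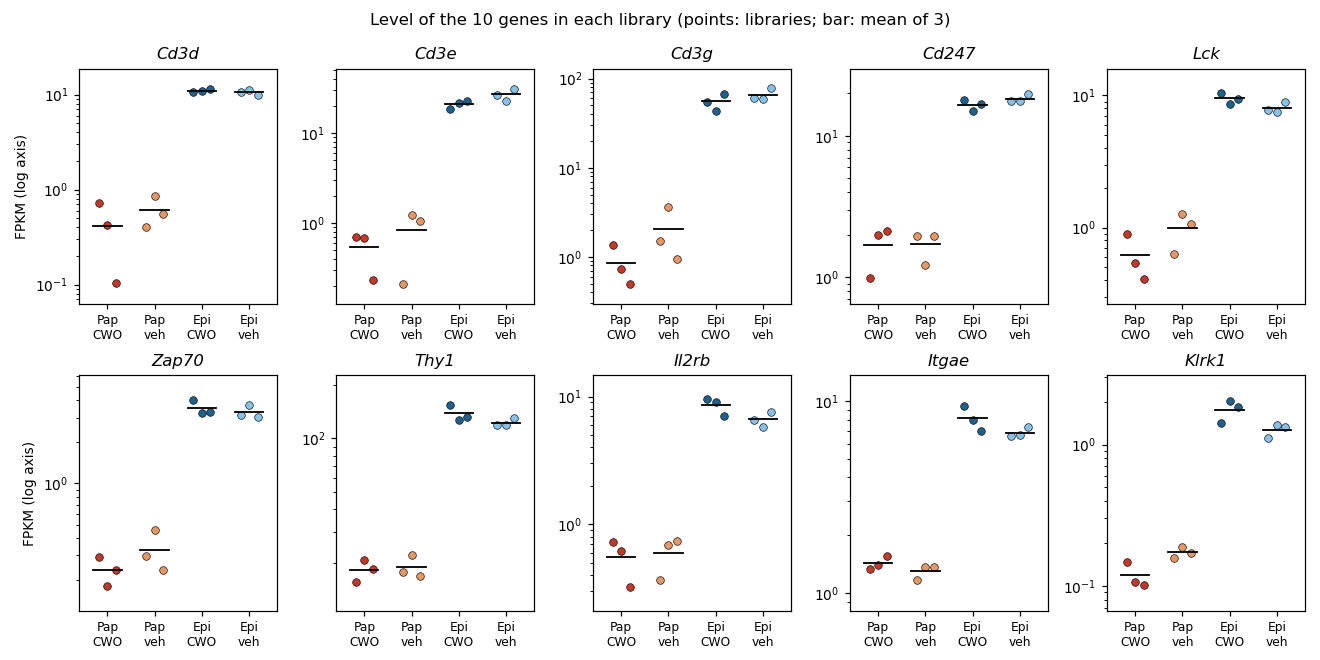
FPKM of each gene in the 12 libraries, on a log axis for each panel. Points are single libraries, bars are the mean of 3, and the groups run from papilloma given CWO and vehicle (Pap) to epidermis given CWO and vehicle (Epi). In every panel the 6 papilloma points lie under the 6 epidermis points, while within a tissue most CWO and vehicle points overlap.

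The question of the tissue comparison was how papillomas differ from normal epidermis, under each treatment. All 10 genes were lower in papillomas, under CWO and under vehicle, and in none did the papilloma and epidermis libraries overlap. The CD3 chain genes differed most in fold and Itgae and Thy1 least. In libraries of whole tissue, fewer T cells and less RNA per T cell cannot be told apart. Papillomas were also taken whole and epidermis was split off, so tissue and preparation cannot be told apart either. The same holds for DMBA and TPA, given to the papilloma mice only, and for 6 weeks of treatment against 24 h. Age may differ as well, since it is not given for the epidermis mice.

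Cd3g, the gamma chain of CD3, was the CD3 gene with the highest level in epidermis. It had 1.36, 0.730 and 0.497 FPKM in CWO papillomas against 55.4, 43.6 and 68.0 FPKM in CWO epidermis. In vehicle papillomas it had 1.52, 3.64 and 0.945 FPKM, against 61.4, 59.5 and 77.5 FPKM in vehicle epidermis. Mean FPKM was thus 64.6-fold lower in papillomas under CWO and 32.5-fold lower under vehicle. On the scale of log2(FPKM + 1), where the added 1 shrinks differences of weakly expressed genes, the differences were -4.93 (SE 0.21) under CWO and -4.56 (SE 0.29) under vehicle. Both passed limma's test with Benjamini-Hochberg adjustment over all genes (adjusted p = 5.23e-07 and 4.06e-06).

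Cd3e encodes the epsilon chain, which pairs with the gamma chain and with the delta chain. It had 0.704, 0.677 and 0.235 FPKM in CWO papillomas against 18.4, 21.6 and 22.7 FPKM in CWO epidermis. Under vehicle it had 0.212, 1.23 and 1.04 FPKM in papillomas against 26.6, 22.9 and 31.2 FPKM in epidermis. The log2 differences were -3.84 under CWO and -3.97 under vehicle (limma adjusted p = 4.80e-07 and 2.86e-06), and mean FPKM was 38.8-fold and 32.5-fold lower. For Cd3d, the delta chain, CWO papillomas had 0.728, 0.424 and 0.103 FPKM and CWO epidermis 10.7, 11.0 and 11.4 FPKM. Vehicle papillomas had 0.406, 0.851 and 0.549 FPKM of Cd3d, and vehicle epidermis 10.6, 11.1 and 9.93 FPKM. Cd3d differed by log2 differences of -3.11 and -2.86 under CWO and vehicle (limma adjusted p = 1.55e-06 and 1.16e-06). These papilloma values rest on few sequenced fragments: Cd3d had 2 to 17 per library in CWO papillomas and 7 to 19 in vehicle papillomas, against 213 to 228 in CWO epidermis and 137 to 272 in vehicle epidermis.

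Cd247 encodes the zeta chain, which carries most of the receptor's phosphorylation motifs, and it kept a higher level in papillomas than the CD3 trio in 5 of 6 comparisons of group means. CWO papillomas had 0.985, 2.01 and 2.12 FPKM of Cd247, against 17.9, 15.1 and 16.8 FPKM in CWO epidermis. Vehicle papillomas had 1.97, 1.23 and 1.95 FPKM, against 17.6, 17.6 and 19.7 FPKM in vehicle epidermis. The means were 9.73-fold and 10.7-fold lower in papillomas under CWO and vehicle (log2 differences -2.73 and -2.84; limma adjusted p = 4.96e-06 and 1.43e-06).

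The CD3 trio lies together on mouse chromosome 9 (mm9), with Cd3g at 44777655 to 44788514, Cd3d at 44789869 to 44795135 and Cd3e at 44806826 to 44817673. The 3 genes span 40019 bp, with gaps of 1354 bp between Cd3g and Cd3d and 11690 bp between Cd3d and Cd3e. The genes on either side went the other way between the tissues. Ube4a, a ubiquitin ligase gene, was higher in papillomas by log2 differences of 0.69 under CWO and 0.86 under vehicle (limma adjusted p = 0.000607 and 0.000231). Mpzl2, an epithelial adhesion gene, was higher by 1.36 and 1.58 (limma adjusted p = 5.76e-06 and 2.00e-05). Cd247 lies apart, on chromosome 1 (167718812 to 167801284). The 250 bases before each start are shown for the 4 chain genes because their levels fell together between the tissues; they are RefSeq promoters on GRCm38.p6, 5′ to 3′, at chr9:44980432-44980681 (minus strand) for Cd3g, chr9:44981536-44981785 (plus) for Cd3d, chr9:45009612-45009861 (minus) for Cd3e and chr1:165788431-165788680 (plus) for Cd247. Capitals mark the E-box CACCTG, a motif of E proteins, on either strand, so that CAGGTG is marked too.
Cd3g: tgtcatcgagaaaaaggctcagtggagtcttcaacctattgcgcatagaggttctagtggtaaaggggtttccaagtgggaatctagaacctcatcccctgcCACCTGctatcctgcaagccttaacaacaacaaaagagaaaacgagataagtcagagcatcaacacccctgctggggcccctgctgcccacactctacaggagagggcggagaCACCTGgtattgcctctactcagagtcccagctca
Cd3d: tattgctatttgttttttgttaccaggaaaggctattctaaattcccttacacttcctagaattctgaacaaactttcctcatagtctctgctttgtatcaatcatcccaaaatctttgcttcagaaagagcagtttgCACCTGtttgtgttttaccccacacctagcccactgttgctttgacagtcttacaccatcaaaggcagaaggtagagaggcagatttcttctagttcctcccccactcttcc
Cd3e: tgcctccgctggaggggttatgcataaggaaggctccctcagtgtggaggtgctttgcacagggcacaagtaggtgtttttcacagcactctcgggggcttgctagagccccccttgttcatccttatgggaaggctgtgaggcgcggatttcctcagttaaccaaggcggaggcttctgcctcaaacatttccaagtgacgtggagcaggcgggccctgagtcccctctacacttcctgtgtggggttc
Cd247: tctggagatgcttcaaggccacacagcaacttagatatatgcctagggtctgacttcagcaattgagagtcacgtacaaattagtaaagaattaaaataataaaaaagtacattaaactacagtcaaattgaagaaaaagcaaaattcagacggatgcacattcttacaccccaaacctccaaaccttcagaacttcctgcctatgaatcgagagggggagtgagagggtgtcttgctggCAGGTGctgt
The E-box occurs 2 times before Cd3g, 1 time each before Cd3d and Cd247 and 0 times before Cd3e, and 17.2% of 32851 mouse promoters of this length hold it. ACTTCC, a core of ETS factor sites, occurs 1 time each before Cd3d, Cd3e and Cd247 on either strand and 0 times before Cd3g, against 19.7% of all promoters. Of the other motifs searched on both strands, TGTGGT of RUNX factors (14.0% of all promoters) is in none of the 4 windows, AGATAA of the factor family of Gata3 (9.99%) is 1 time before Cd3g, and CTTTGA of TCF and LEF factors (13.8%) is 2 times before Cd3d. No match overlaps a match of another motif, and the matches describe letters only.

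The kinase genes had lower mean FPKM than the CD3 chains in epidermis and differed in the same direction. Lck phosphorylates the receptor chains. It had 0.901, 0.543 and 0.405 FPKM in CWO papillomas against 10.5, 8.62 and 9.41 FPKM in CWO epidermis, a 15.4-fold lower mean. Vehicle papillomas had 0.632, 1.27 and 1.06 FPKM of Lck and vehicle epidermis 7.82, 7.45 and 8.85 FPKM, an 8.14-fold lower mean. The log2 differences for Lck were -2.71 and -2.20 under CWO and vehicle (limma adjusted p = 1.55e-06 and 6.78e-06). Zap70, the kinase that docks on the phosphorylated chains, had 0.292, 0.181 and 0.234 FPKM in CWO papillomas against 4.00, 3.27 and 3.31 FPKM in CWO epidermis. Under vehicle it had 0.297, 0.458 and 0.234 FPKM in papillomas against 3.16, 3.68 and 3.03 FPKM in epidermis. That is a log2 difference of -1.87 under CWO and -1.69 under vehicle (limma adjusted p = 3.28e-06 and 1.07e-05), over only 6 to 12 and 9 to 18 fragments per library in CWO and vehicle papillomas. Lck lies on chromosome 4 (129225588 to 129250885) and Zap70 on chromosome 1 (36818706 to 36839661).

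Thy1, a glycolipid-anchored surface protein long used to mark these cells in epidermis, had the highest level of the 10 genes in every library. It had 15.8, 20.8 and 18.6 FPKM in CWO papillomas against 155, 127 and 133 FPKM in CWO epidermis. Vehicle papillomas had 17.8, 22.2 and 17.0 FPKM, and vehicle epidermis 119, 119 and 131 FPKM. Thy1 was 7.51-fold lower in papillomas under CWO and 6.46-fold lower under vehicle (log2 differences -2.85 and -2.64; limma adjusted p = 6.31e-07 and 7.14e-07). Thy1 is also made by fibroblasts, and 7 fibroblast markers summed to 378 to 572 FPKM in CWO papillomas and 350 to 508 FPKM in vehicle papillomas, against 15.4 to 27.2 FPKM in CWO epidermis and 30.6 to 72.0 FPKM in vehicle epidermis; what they add to the papilloma level of Thy1 was not tested.

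Itgae encodes the alpha chain of the integrin that binds E-cadherin on keratinocytes. CWO papillomas had 1.34, 1.39 and 1.56 FPKM and CWO epidermis 9.43, 7.94 and 7.01 FPKM. In vehicle papillomas it had 1.17, 1.37 and 1.37 FPKM, against 6.57, 6.66 and 7.37 FPKM in vehicle epidermis. With means 5.68-fold and 5.27-fold lower under CWO and vehicle, Itgae differed least in fold (log2 differences -1.90 and -1.77; limma adjusted p = 5.40e-06 and 4.88e-06). Il2rb, the receptor chain through which interleukins 2 and 15 signal, had 0.733, 0.620 and 0.325 FPKM in CWO papillomas against 9.49, 9.10 and 7.05 FPKM in CWO epidermis. Under vehicle it had 0.366, 0.686 and 0.741 FPKM in papillomas against 6.55, 5.77 and 7.60 FPKM in epidermis. Its log2 differences were -2.61 and -2.26 under CWO and vehicle (limma adjusted p = 2.60e-06 and 5.31e-06). Klrk1, which encodes NKG2D, had the lowest level of the 10 genes in every epidermis library. It had 0.149, 0.107 and 0.101 FPKM in CWO papillomas against 1.42, 2.04 and 1.84 FPKM in CWO epidermis. In vehicle papillomas the values were 0.159, 0.189 and 0.170 FPKM, against 1.10, 1.39 and 1.33 FPKM in vehicle epidermis. Papilloma levels of Klrk1 rest on 3 to 7 fragments per library under CWO and 5 to 9 under vehicle. Its log2 differences were -1.30 and -0.95 (limma adjusted p = 2.67e-05 and 0.000137). On mm9, Thy1 lies on chromosome 9 (43851467 to 43856662), Itgae on chromosome 11 (72904097 to 72960951), Il2rb on chromosome 15 (78310979 to 78325496) and Klrk1 on chromosome 6 (129560339 to 129573859).

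**Figure D2:**
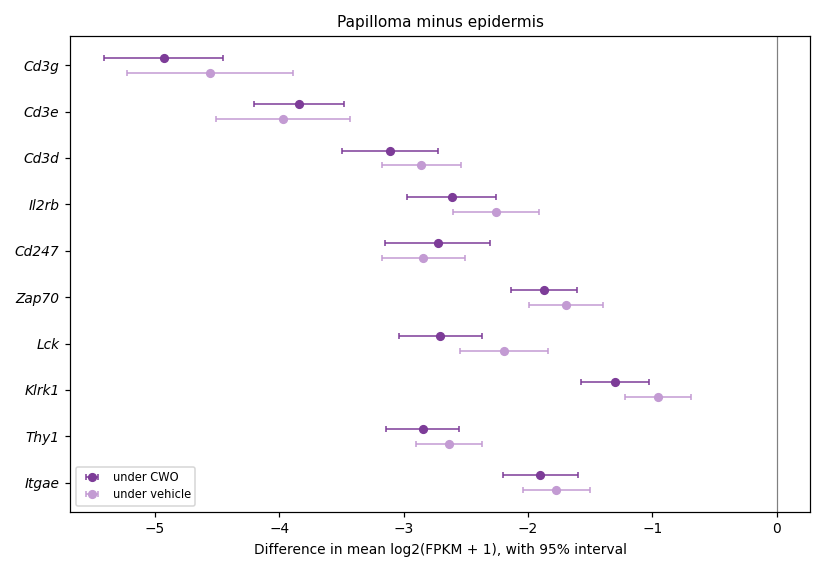
Papilloma minus epidermis in mean log2(FPKM + 1) for each gene, under CWO and under vehicle, with limma's 95% intervals and 3 libraries per group. Genes are ordered by their fold in mean FPKM under vehicle, and all 20 values lie between -4.93 and -0.95 with no interval reaching 0.

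All 10 genes were thus called lower under CWO, against 39.7% of the 12696 genes tested, and all 10 under vehicle, against 38.3% of 12795. A call needs an adjusted p under 0.05. The median log2 difference of the 10 genes was -2.72 under CWO and -2.45 under vehicle, beside -0.12 and -0.07 over all genes tested. Lack of overlap in this direction held for 42.6% of genes under CWO and 40.7% under vehicle. For each gene the exact permutation test of 3 against 3 libraries gave p = 0.1, two-sided, the smallest it allows. The filter asked for 3 fitted libraries with an FPKM of 1 or more. Under CWO all but Thy1 and Itgae, and under vehicle all but these and Cd247, passed it through epidermis alone, where they are high. That goes far to fix their direction, so their count and median are a description. Leaving out any 1 epidermis library left 4 genes past this filter under CWO and 6 under vehicle, each called lower, while leaving out a papilloma library left all 10.

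Other genes of the receptor pathway were lower in papillomas in part. Of 44 further pathway genes listed, 43 were in the files and 29 passed the filter under CWO, of which 20 were lower, 2 higher and 7 not called. Under vehicle 27 passed, with 15 lower, 3 higher and 9 not called; of all genes tested 29.1% were called higher under CWO and 31.8% under vehicle. Of the lower pathway genes, 11 under CWO and 6 under vehicle passed the filter through epidermis alone, so their counts too are descriptions. The median log2 difference of the list was -0.75 under CWO and -0.41 under vehicle. Trat1, a transmembrane adaptor that binds the receptor, averaged 0.192 ± 0.0649 FPKM in CWO papillomas and 6.52 ± 0.220 FPKM in CWO epidermis (SD, n = 3; log2 difference -2.66). Lat, the membrane scaffold that Zap70 phosphorylates, averaged 1.70 ± 0.249 FPKM in CWO papillomas and 12.9 ± 0.302 FPKM in CWO epidermis (log2 difference -2.37). Under vehicle the log2 differences of Trat1 and Lat were -3.12 and -2.13. Cd2, an adhesion receptor of T cells, differed by -2.39 and -2.01 under CWO and vehicle, the phosphatase gene Ptpn6 by -1.92 and -1.96, and the adaptor genes Grap2 and Skap1 by -1.39 and -1.49 under CWO. The limma adjusted p of these 6 genes was at most 2.85e-05 under either treatment. Cbl, a ubiquitin ligase gene that many cells use, was higher in papillomas by 1.34 under CWO and 1.19 under vehicle. Malt1, a protease gene of NF-kappaB signalling, was higher by 0.38 and 0.73 (limma adjusted p = 0.0410 and 0.00280). Dgka, a lipid kinase gene, was higher by 0.49 under vehicle (limma adjusted p = 0.0370), while its 0.45 under CWO was not called (limma adjusted p = 0.0601). All 3, as the other called genes beyond the 6 of smallest p, are named after their values were seen.

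Many genes known from epidermal and gamma delta T cells were lower in papillomas too. The gamma delta receptor genes themselves are not analysed here. Of 40 such genes listed, 33 were in the files and 24 passed the filter under each treatment. Under CWO 20 were lower, 3 higher and 1 not called, and under vehicle 17 were lower, 3 higher and 4 not called. Of the lower genes, 8 under CWO and 7 under vehicle passed the filter through epidermis alone, which goes far to fix their direction, so these counts are descriptions. The median log2 difference was -1.28 under CWO and -1.21 under vehicle. Cd7, a surface protein of T and natural killer cells, averaged 0.902 ± 0.335 FPKM in CWO papillomas and 31.0 ± 6.79 FPKM in CWO epidermis. Nkg7, a granule protein gene of cytotoxic cells, averaged 0.562 ± 0.367 FPKM in CWO papillomas and 30.4 ± 5.09 FPKM in CWO epidermis. Their log2 differences were -4.06 and -4.34 under CWO and -4.41 and -4.19 under vehicle. Ctsw, a protease gene of cytotoxic lymphocytes, differed by -4.04 and -3.46 under CWO and vehicle, and the skin-homing chemokine receptor gene Ccr4 by -3.04 and -2.74. Gata3, a transcription factor gene of T cells that keratinocytes also use, averaged 16.6 ± 0.887 FPKM in CWO papillomas and 156 ± 15.6 FPKM in CWO epidermis (log2 difference -3.15, and -3.09 under vehicle). Zbtb16, a transcription factor gene of innate-like T cells, differed by -2.63 under CWO. Each of these 6 genes had a limma adjusted p of at most 2.16e-06 in the comparisons given. The higher genes, named after their values were seen, were Gimap4 and Gimap6, GTPase genes of lymphocytes and endothelium, and the transcription factor gene Sox13, with log2 differences of 1.26 to 1.44 under CWO.

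Most tested genes of a list drawn up around NKG2D were lower in papillomas as well. Of 17 genes listed, 15 were in the files and 5 were tested under each treatment. Hcst encodes DAP10, the adaptor through which NKG2D signals. It averaged 0.954 ± 0.530 FPKM in CWO papillomas and 8.04 ± 1.08 FPKM in CWO epidermis (log2 difference -2.24), and 0.739 ± 0.351 FPKM in vehicle papillomas and 9.60 ± 0.880 FPKM in vehicle epidermis (log2 difference -2.62). Klrd1, a natural killer receptor chain gene, differed by -2.47 and -1.77 under CWO and vehicle, and the adaptor genes Fcer1g and Tyrobp, which myeloid cells also use, by -1.72 and -1.58 under CWO. Those 4 of the 5 genes tested were called lower under each treatment, with a highest limma adjusted p of 0.000909, and 2 of the 4 passed the filter through epidermis alone. The fifth, H60c, a ligand of NKG2D on keratinocytes, averaged 22.3 ± 2.26 FPKM in CWO papillomas and 26.3 ± 1.05 FPKM in CWO epidermis, and 21.1 ± 3.16 FPKM in vehicle papillomas and 21.5 ± 1.21 FPKM in vehicle epidermis. Its log2 differences of -0.23 and -0.03 were not called (limma adjusted p = 0.0824 and 0.829). Of 9 genes listed for ligands and partners that keratinocytes offer, 6 were tested. Of these, 5 were lower and 1 not called under CWO, and 4 lower, 1 higher and 1 not called under vehicle. Beside both lists, 39.7% of all genes tested were called lower under CWO and 38.3% under vehicle. With so few genes tested, these counts are descriptions. Named after their values were seen, Il15 and its presenting receptor Il15ra differed by -1.95 and -1.28 under CWO and by -1.79 and -1.19 under vehicle (limma adjusted p at most 0.000203).

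**Figure D3:**
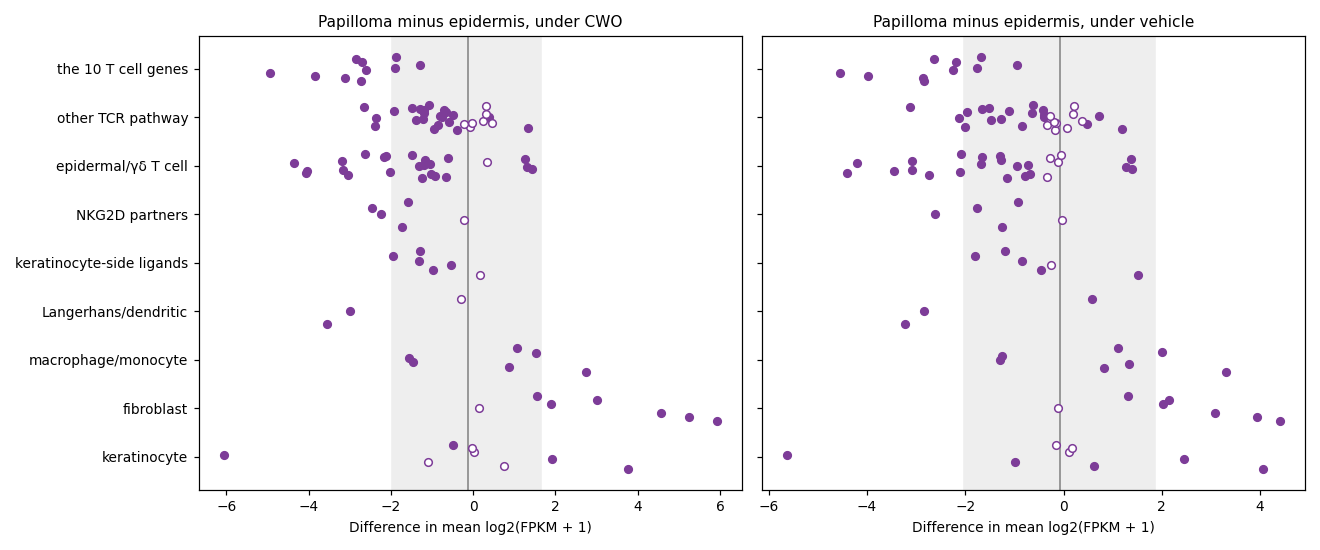
Papilloma minus epidermis in mean log2(FPKM + 1) for each tested gene of 9 lists, under CWO (left) and vehicle (right). Filled points passed limma's test and open points did not, the grey band ends at the percentiles 5 and 95 of all genes tested and the line is their median; the 10 T cell genes all lie left of the line, and the fibroblast genes that were called lie right of it.

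Markers of other cells moved between the tissues as well, and their part in these differences was not tested. The 7 markers of Langerhans and dendritic cells summed to 159 to 191 FPKM in CWO papillomas and 169 to 210 FPKM in vehicle papillomas, against 1209 to 1552 FPKM in CWO epidermis and 1271 to 1415 FPKM in vehicle epidermis. Most of that sum was Cd74, an antigen presentation gene, with means of 166 FPKM in CWO papillomas and 1332 FPKM in CWO epidermis, and of 179 FPKM in vehicle papillomas and 1276 FPKM in vehicle epidermis. Of the 3 markers tested, 2 were lower under each treatment. The other, Itgax, was not called under CWO (log2 difference -0.30, limma adjusted p = 0.139) and was higher in papillomas under vehicle, at 2.67 ± 0.350 FPKM in vehicle papillomas and 1.46 ± 0.135 FPKM in vehicle epidermis (SD, n = 3; log2 difference 0.58, limma adjusted p = 0.00368). These genes are named after their values were seen. Cd207, which encodes langerin and is named likewise, was lower in papillomas by log2 differences of -3.56 and -3.23 under CWO and vehicle (limma adjusted p = 2.02e-07 and 1.94e-06). Ptprc, the CD45 gene of all white blood cells and named after its values were seen, differed by -1.20 and -1.11. Skeletal muscle markers summed to 9.17 to 61.4 FPKM in CWO papillomas and 49.3 to 375 FPKM in vehicle papillomas, against 3066 to 3944 FPKM in CWO epidermis and 3675 to 18082 FPKM in vehicle epidermis. Keratinocyte markers summed to 29196 to 37870 FPKM in CWO papillomas and 31010 to 35389 FPKM in vehicle papillomas, against 25143 to 26466 FPKM in CWO epidermis and 21777 to 26875 FPKM in vehicle epidermis. The summed level of the natural killer markers was higher in papillomas, at 2.54 to 4.50 FPKM under CWO and 4.86 to 5.35 FPKM under vehicle, beside the epidermis sums above, and 1 of the 7 passed the filter. Named after their values were seen, Klra4 carried much of that sum, with means of 1.39 and 2.95 FPKM in CWO and vehicle papillomas and no fragment in epidermis. Eomes averaged 0.864 FPKM in CWO papillomas and 0.0484 FPKM in CWO epidermis, and 1.41 FPKM in vehicle papillomas and 0.0319 FPKM in vehicle epidermis. Klrb1c had the opposite direction, at 0.113 FPKM in CWO papillomas and 0.633 FPKM in CWO epidermis, and at 0.116 FPKM in vehicle papillomas and 0.699 FPKM in vehicle epidermis. Ncr1 averaged 0.0746 FPKM in CWO papillomas and 0.238 FPKM in CWO epidermis. Under vehicle its means were close, at 0.0537 FPKM in papillomas and 0.0577 FPKM in epidermis, and no library had more than 7 fragments. Without both vehicle epidermis libraries with the most muscle RNA, a check added after the data were seen, 1 vehicle epidermis library was left and was assumed to vary like the other libraries. The 6 genes that then passed the filter had log2 differences of -4.79 to -1.86.

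The papilloma libraries differed among themselves in these genes. Among vehicle papillomas, library 2 had the highest Cd3d, Cd3e, Cd3g, Lck, Zap70, Thy1 and Klrk1. It also had the highest Cd8a, at 0.522 FPKM, against 0.120 FPKM in the lowest vehicle papilloma. Among CWO papillomas, library 1 had the highest Cd3d, Cd3e, Cd3g, Lck, Zap70, Il2rb and Klrk1. Cd247 ran against this, with its lowest vehicle value in library 2 and its lowest CWO value in library 1, where Thy1 and Itgae were lowest as well. Of the CWO papillomas, library 3 was lowest in Cd3d, Cd3e, Cd3g, Lck, Il2rb and Klrk1. With 3 libraries per group and so few fragments, the order of libraries is a description.

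The effect of a single CWO application on epidermis after 24 h was asked next. None of the 10 genes was called (0 of 10), against 2.00% of the 12294 genes tested with limma, of which 224 were higher and 22 lower. Without adjustment 1 of the 10, Cd3e, had a p under 0.05, against 14.7% of all genes. Cd3e averaged 20.9 ± 2.23 FPKM in CWO epidermis and 26.9 ± 4.12 FPKM in vehicle epidermis (SD, n = 3 each), and the libraries did not overlap. Its log2 difference was -0.34 (95% interval -0.67 to -0.02, limma adjusted p = 0.309). The other receptor chains gave -0.26 for Cd3g, -0.14 for Cd247 and 0.06 for Cd3d, with overlapping libraries. Lck gave 0.21 and Zap70 0.08, and the surface genes gave 0.17 for Thy1, 0.21 for Itgae, 0.32 for Il2rb and 0.28 for Klrk1. Klrk1 averaged 1.77 ± 0.316 FPKM in CWO epidermis and 1.27 ± 0.148 FPKM in vehicle epidermis, and it was the other gene without overlap, with every CWO library higher (limma adjusted p = 0.447). Libraries did not overlap in the lower direction for 6.67% of all genes and in the higher direction for 12.1%. The 95% intervals of the 10 genes lay within -0.67 to 0.67, and a missed threshold does not show equal levels. The median of the 10 genes was 0.12, beside 0.02 over all genes. None of the 10 is among the 176 genes of the authors' deposited table for epidermis.

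The pathway, epidermal T cell, NKG2D and keratinocyte-side lists had 29, 24, 5 and 6 genes tested in epidermis given CWO. Of these, 1 gene, Tnfrsf9, was called, beside 2.00% of all genes tested. Tnfrsf9 encodes 4-1BB (CD137), a co-stimulatory receptor that T cells put on their surface on activation and that other white blood cells carry too. It had 3.91, 5.43 and 5.92 FPKM in CWO epidermis, ordered by level, against 0.912, 1.23 and 1.52 FPKM in vehicle epidermis. Its log2 difference was 1.45 (SE 0.18, limma adjusted p = 0.00801). The call held with any 1 library left out, but not with a replicate block (adjusted p = 0.0506), without a filter (0.0568) or without both muscle-rich vehicle libraries (0.122, with 1 vehicle library left), at log2 differences of 1.43 to 1.45. The other 23 epidermal and gamma delta T cell genes tested were not called. None of 29 further pathway genes was called, and the smallest p among them belonged to Bcl10, an adaptor gene of NF-kappaB signalling (0.33, limma adjusted p = 0.201), and Trat1 (-0.36, limma adjusted p = 0.243). None of 5 genes of the NKG2D list was called, with H60c at 0.28 and Tyrobp at 0.30 (limma adjusted p = 0.248 and 0.476). The keratinocyte-side list gave 0 of 6. Langerhans and dendritic cell markers, whose sums overlap between CWO and vehicle epidermis, also gave 0 called, of 3 tested. Fibroblast markers differed between these groups, with 2 of 6 tested lower in CWO epidermis; their part in the T cell values was not tested. Muscle markers, 0 of 10 called, had a median log2 difference of -1.40. Without both muscle-rich vehicle libraries Cd3e had -0.56 (limma adjusted p = 0.639), with 1 vehicle library left that was assumed to vary like the CWO libraries.

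**Figure D4:**
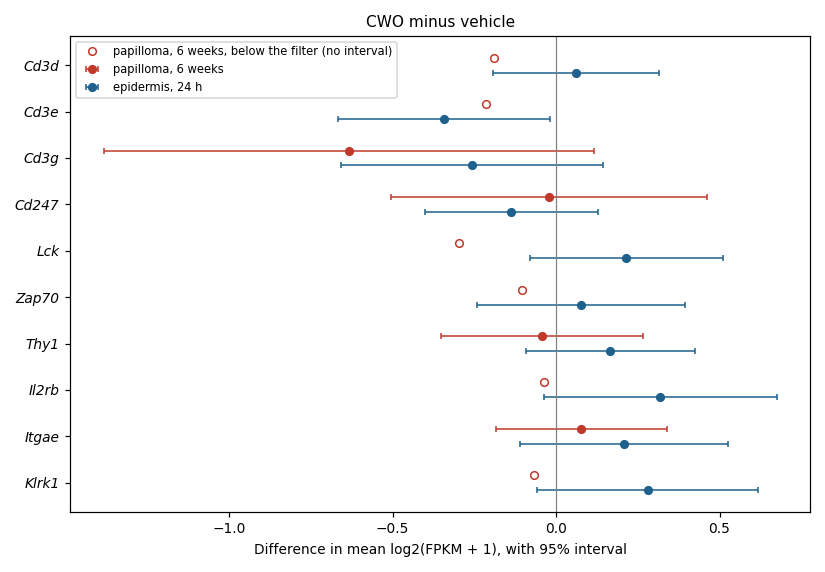
CWO minus vehicle in mean log2(FPKM + 1) for each gene, in papillomas after 6 weeks and in epidermis after 24 h, with limma's 95% intervals. Open points are genes below the filter in papillomas, drawn without an interval; none of the 14 tested values was called, and only the interval of Cd3e in epidermis leaves out 0, at -0.67 to -0.02.

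In papillomas the comparison asked what 6 weeks of CWO changed. Of the 10 genes, 4 passed the filter and 0 were called, beside 0% of the 12149 genes tested with limma; 306 genes, or 2.52%, had an unadjusted p under 0.05, and limma-voom on recovered fragments called 0 as well. Cd3g averaged 0.861 ± 0.445 FPKM in CWO papillomas and 2.04 ± 1.42 FPKM in vehicle papillomas, with overlapping libraries (log2 difference -0.63, 95% interval -1.38 to 0.12, limma adjusted p = 1.00). It passed the filter through exactly 3 libraries, so leaving out CWO library 1 or vehicle library 1 or 2 took it out of the test. Cd247, Thy1 and Itgae had log2 differences of -0.02, -0.04 and 0.08. The other 6 genes were below the filter and had differences of -0.30 for Lck, -0.21 for Cd3e, -0.19 for Cd3d, -0.10 for Zap70, -0.07 for Klrk1 and -0.04 for Il2rb. Klrk1 was the only one of the 10 whose papilloma groups did not overlap, at 0.101 to 0.149 FPKM under CWO and 0.159 to 0.189 FPKM under vehicle. The exact permutation test, two-sided, gave p = 0.1 for it. No overlap in this direction was seen for 3.58% of all genes tested, a share that leaves out genes below the filter such as Klrk1. For the other 5 genes below the filter the exact permutation p was 0.2 to 0.7. In the authors' deposited table for papillomas all 10 genes have an adjusted p of 1, and the smallest unadjusted p among them is 0.0697, for Lck. In the other lists none of 23 pathway genes, 18 epidermal and gamma delta T cell genes, 4 genes of the NKG2D list and 6 keratinocyte-side genes tested was called. Among those of smallest p in the first 3 lists were Cd2 (-0.37) and Prkcq, a kinase gene of the pathway (-0.46), Sox13 (-0.40), and Tyrobp (-0.34) and Fcer1g (-0.35), each with a limma adjusted p of 1.00. Tnfrsf9 had 0.693, 1.43 and 1.44 FPKM in CWO papillomas and 0.820, 1.25 and 1.34 FPKM in vehicle papillomas, both ordered by level.

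Whether the CWO effect differed between papillomas and epidermis was tested over all 12 libraries. None of the 10 genes was called (0 of 10), against 0.743% of 13191 genes with limma. Lck had -0.51 (95% interval -0.98 to -0.05, limma adjusted p = 0.443), and -1.002 to -0.32 over the alternatives (adjusted p = 0.277 to 0.731). Klrk1 had -0.35 (limma adjusted p = 0.505), and with limma-voom on recovered fragments -1.19, past the -1.002 of Lck there. Lck was the only one of the 10 with an unadjusted p under 0.05, against 9.91% of all genes. The remaining 8 genes ranged from -0.38 for Cd3g to 0.13 for Cd3e. Tnfrsf9 was called here, at -1.43 (SE 0.26, limma adjusted p = 0.0309), the only gene of its list and of the pathway and NKG2D lists that was. That call was lost when any of 7 of the 12 libraries was left out in turn (limma adjusted p = 0.0530 to 0.0977), at differences of -1.51 to -1.25. Those libraries were vehicle 1 and CWO 1 and 2 of epidermis, and vehicle 2 and 3 and CWO 2 and 3 of papilloma. Not called at the smallest p of their lists were Trat1 (0.46) and Nck1, an adaptor gene (-0.52), and Tyrobp (-0.64) and Fcer1g (-0.47), with limma adjusted p of 0.292 to 0.548. Tissue, time after treatment and the number of doses all differ between the 2 arms, so what this difference belongs to cannot be told apart.

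The mean profile of the 10 genes over the 12 libraries was also set beside the profiles of 12010 other genes. Among the nearest, by the root mean square difference of centred log2(FPKM + 1), were Il20rb (0.0916), Acer1 (0.0969), Paqr4 (0.105), Mcf2l (0.105), Nupr1 (0.111), Atp2b4 (0.114) and Dhrs7 (0.125). The median over all genes was 1.31, and the 10 genes themselves lay at 0.128 (Thy1) to 1.09 (Cd3g). Il20rb, a receptor chain for cytokines of the interleukin 20 group, averaged 26.6 ± 0.408 FPKM in CWO papillomas and 29.8 ± 0.419 FPKM in vehicle papillomas, against 184 ± 5.02 FPKM in CWO epidermis and 184 ± 17.6 FPKM in vehicle epidermis. Acer1, a ceramidase gene, averaged 34.0 ± 2.13 and 37.6 ± 3.94 FPKM in CWO and vehicle papillomas, against 227 ± 13.5 and 233 ± 15.2 FPKM in CWO and vehicle epidermis. The likeness is a description with no test.

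**Figure D5:**
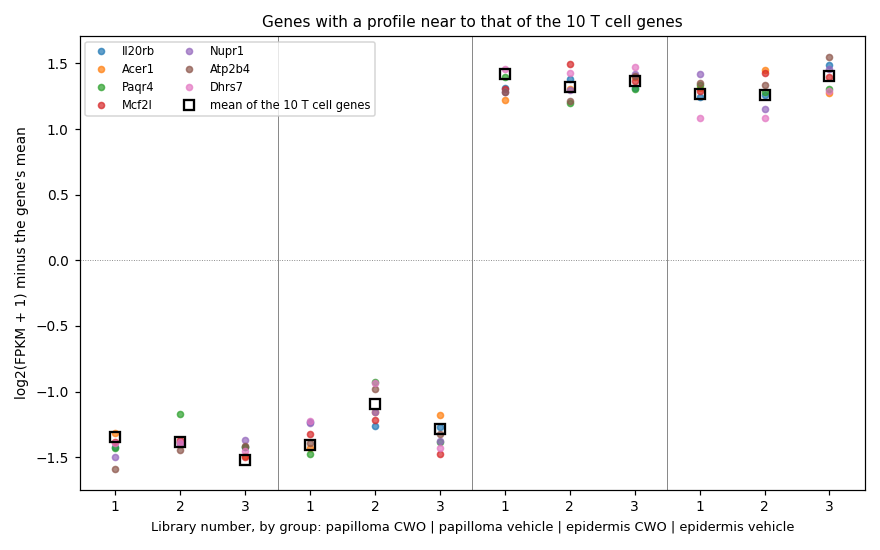
Centred log2(FPKM + 1) in each of the 12 libraries for the mean of the 10 T cell genes (open squares) and 7 of the genes nearest to it (coloured points). All lie between -1.59 and -0.93 in papillomas and between 1.08 and 1.55 in epidermis, with the mean of the 10 genes highest among papillomas in vehicle library 2, at -1.09.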

How the data were processed

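Poly-A RNA was sequenced by the submitters in 12 libraries, 3 in each of 4 groups taken from the sample labels. Per the submitters' processing notes, bcl2fastq 1.8.4, TopHat2 2.0.4, Cufflinks 2.0.2 and DESeq were used with mm9. The deposited per-library tables give FPKM with an interval and a status per gene. The authors' comparison tables give, per the file headers, a mean signal per group (normalised counts), a fold as a ratio, its log2 value and a p-value.

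The deposited per-library values cover 23235 symbols. Values whose status was not OK were set to missing, and rows of 248 repeated symbols were summed. From these symbols 671 short non-coding genes were then left out. The interval around each FPKM gave back the fragment number behind it, and 68.0% to 69.2% of those under 500 were whole within 0.02. They cover counting error only. The test was the trend version of limma 3.58.1 in R 4.3.3, run on log2(FPKM + 1) with a pseudocount of 1. Genes entered it with 3 or more fitted libraries at an FPKM of 1 or more and 2 or more values per group. The threshold was a two-sided Benjamini-Hochberg adjusted p under 0.05 over all genes tested. Genes below the filter had an exact permutation test. The steps were tested on simulated data. The labels tie papilloma libraries to separate mice; for epidermis they do not say so, and p-values there measure the spread between samples.

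The genes, lists and tests were chosen with earlier results of these data known. The 10 genes are always named; of the pathway, epidermal T cell and NKG2D lists, at most 6 called genes per comparison, or 2 where none was called; and the nearest genes by likeness. Items withheld for evaluation are not reported here. Others are marked where named. Promoters are RefSeq on GRCm38.p6, with 7 of the 10 genes matched. Alternatives were other pseudocounts, filters, scalings, limma-voom, all libraries in 1 fit, a replicate block and each library left out.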

Additional observations from a re-analysis of the deposited data

Results flagged for a closer look

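Klrk1, the NKG2D gene, lay on opposite sides of the vehicle libraries in the 2 tissues: all 3 CWO papillomas lay under all 3 vehicle papillomas, and all 3 CWO epidermis libraries lay over all 3 vehicle epidermis libraries. The difference of the effects, papilloma minus epidermis, was -0.35 in log2(FPKM + 1) and did not pass limma's test over all genes (limma adjusted p = 0.505). Over the alternative settings it ranged from -1.19 to -0.18, with limma adjusted p of 0.340 to 0.752. The papilloma levels behind it are 3 to 9 fragments per library. Among all genes tested, libraries did not overlap in the higher direction for 12.1% in epidermis. In papillomas they did not overlap in the lower direction for 3.58%, a share without genes below the filter such as Klrk1. The share of genes with both is not given here.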

How the results depend on the processing

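No gene of the 10 changed its call in any of 753 recomputed values over the 5 comparisons. Between tissues the log2 differences stayed at -5.93 to -0.61 under CWO and -5.15 to -0.43 under vehicle. The numbers of genes called, 10 in each, fell to 4 under CWO and 6 under vehicle when 1 epidermis library was left out, and to 6 without both muscle-rich vehicle epidermis libraries, which leaves 1 library assumed to vary like the others, because fewer genes then passed the filter. Median-ratio scaling moved the median of all genes under CWO to 0.01, with the 10 genes at -4.82 to -1.24. Differences that were not called changed sign 11 times. In papillomas Cd247 came to 0.029 under quantile normalization and to -0.16 to 0.19 with 1 library left out, above 0 without vehicle library 1 or 3 or CWO library 1, and Thy1 to -0.13 to 0.069, above 0 without vehicle library 2 or CWO library 1. For the difference of effects Cd3e came to -0.037 with a pseudocount of 0.1, to -0.054 with limma-voom and to -0.14 to 0.29 with 1 library left out, below 0 without papilloma vehicle library 1. Cd247 came to -0.023 to 0.32 there, below 0 without papilloma vehicle library 2 or CWO library 3. The causes were not tested. For Tnfrsf9 the difference of effects also missed the threshold with a pseudocount of 0.1 (-1.96, adjusted p = 0.0670), without a filter (0.0644), under quantile normalization (-1.35, 0.0541) and with limma-voom (-2.18, 0.116). Cd3e in epidermis had -0.56 to -0.24 with adjusted p of 0.178 to 0.681. Of all genes, the 246 called in epidermis came to 43 without a filter, 656 with all 12 libraries in 1 fit, 12 without both muscle-rich libraries and 64 to 681 with each library left out, and the 98 called for the difference to 63 without a filter and 34 to 328. The labels do not say whether replicate numbers pair the samples. In no comparison was every same-numbered pair correlated above 0.1. The correlations were 0.28, 0.14 and 0.02 in papillomas and 0.02, -0.44 and -0.36 in epidermis. Between tissues they were 0.21, -0.02 and 0.25 under vehicle and -0.06, 0.07 and -0.23 under CWO. With 3 libraries per group these values cannot decide whether samples were paired. With the replicate number as a block, 0, 0 and 0 of the 10 genes were called in epidermis, papillomas and the difference and 10 between tissues under each treatment, while 54, 4 and 57 of all genes were called in the first 3. Fragment numbers limit what can be seen of these genes in papillomas.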

Other observations

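Some T cell genes, picked out after their values were seen and not described above, had higher levels in CWO epidermis without overlap, as 12.1% of all genes tested had. Cd69, an early activation and residency marker, had 1.41 to 1.63 FPKM in CWO epidermis and 0.450 to 0.821 FPKM in vehicle epidermis (log2 difference 0.68, limma adjusted p = 0.0655). Cd5, a receptor that dampens T cell receptor signalling, had 0.513 to 0.606 FPKM in CWO epidermis and 0.264 to 0.342 FPKM in vehicle epidermis, on 17 to 20 and 7 to 12 fragments per library, below the filter. Cd6, its relative and also below the filter, had 0.266 to 0.541 FPKM in CWO epidermis and 0.0335 to 0.161 FPKM in vehicle epidermis.

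Other T cell genes, picked out in the same way, had lower levels in CWO epidermis without overlap, as 6.67% of all genes tested had. Cd7 had 23.3 to 36.1 FPKM in CWO epidermis and 41.3 to 51.5 FPKM in vehicle epidermis, and Trat1 had 6.39 to 6.78 FPKM in CWO epidermis and 7.64 to 9.84 FPKM in vehicle epidermis. Itgb7, an integrin chain gene, had 7.33 to 9.28 FPKM in CWO epidermis and 10.04 to 11.3 FPKM in vehicle epidermis, and Sit1, an adaptor gene, 1.61 to 2.21 FPKM in CWO epidermis and 2.31 to 3.21 FPKM in vehicle epidermis. None of these 4 was called (limma adjusted p = 0.160 for Cd7 to 0.253 for Sit1). Of the 43 pathway genes in the files, 7 were higher in CWO epidermis without overlap and 3 lower, and of the 33 epidermal and gamma delta T cell genes 9 were higher and 4 lower. These counts take in genes below the filter, since only 29 and 24 of the genes passed it. The shares of 12.1% and 6.67% leave such genes out, so counts and shares are not over like genes.

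Cd5 and Eomes, also picked out after their values were seen, were below the filter in the tissue comparisons. In papillomas Cd5 had 0.807 to 1.15 FPKM under CWO and 0.664 to 1.19 FPKM under vehicle, all above every epidermis library, whereas the CD3 chain genes were lower there. The share of all genes without overlap in this direction is not given here. Of all genes tested, 29.1% were called higher in papillomas under CWO and 31.8% under vehicle. Eomes, a transcription factor gene of cytotoxic T and natural killer cells, had 0.411 to 1.35 FPKM in CWO papillomas and 0.755 to 2.18 FPKM in vehicle papillomas, against 0.0160 to 0.0653 FPKM in CWO epidermis and 0 to 0.0839 FPKM in vehicle epidermis.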
